A study of Homo sapiens with 12 samples.

Results

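The colony stimulating factor genes CSF1, CSF2, CSF3 and IL34 and the CC chemokine genes CCL2, CCL5 and CCL28 were followed in HK2, an immortalized human cell line derived from the proximal tubule epithelium. They are the 7 rows, of 58278 genes listed, whose symbol is among these names. The rule uses symbols alone, but the names were proposed with earlier results of these data known. The 12 libraries formed 6 groups of 2 replicates each. Control cells (Ctrl) received no treatment, and TN cells had 3 h of TNF-α at 5 ng/mL. PRTN and BUTN cells received propionate at 15 mM or butyrate at 3 mM for 24 h before the same TNF-α, while TNPR and TNBU cells received them for 24 h after it. The study describes the replicates as biological, and the labels do not say whether they were separate cultures, so the p-values measure the spread between these libraries. Groups follow the labels of single libraries, which name TNF-α and the short-chain fatty acid (SCFA), and not a general treatment text that names thapsigargin and JQ1. Cells given SCFA without TNF-α, and cells kept for 24 h after TNF-α without SCFA, were not analysed here, and both SCFAs were used at different doses.

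CSF1 and IL34 are secreted ligands of the same receptor, CSF1R, on macrophages. CSF2 (GM-CSF) and CSF3 (G-CSF) drive the growth and activation of granulocytes and macrophages, CCL2 attracts monocytes through CCR2, CCL5 attracts T cells and monocytes, and CCL28 is a chemokine of epithelial surfaces that binds CCR10. Tubular cells are a known source of CSF1, IL34 and CCL2 in the inflamed kidney, and TNF-α raises many such genes through the transcription factor NF-κB. Several of these messages are short-lived, because AU-rich elements in the 3′ untranslated region recruit proteins that speed their decay.

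Sequence features of 2 kinds are described here, namely the letters of an NF-κB site before the start of the gene and the AU-rich pentamer at its end. Their part in the changes of level was not tested. RefSeq windows on GRCh38.p14 matched 2 of the 7 genes, CSF2 and CCL28. The 250 bases before each start are shown because CSF2 rose with TNF-α and CCL28 did not, with capitals marking the NF-κB letters searched on either strand, GGG and CC with any 5 bases between them. The CSF2 sequence lies at chr5:132073539-132073788 on the plus strand and the CCL28 sequence at chr5:43412392-43412641 on the minus strand.
CSF2: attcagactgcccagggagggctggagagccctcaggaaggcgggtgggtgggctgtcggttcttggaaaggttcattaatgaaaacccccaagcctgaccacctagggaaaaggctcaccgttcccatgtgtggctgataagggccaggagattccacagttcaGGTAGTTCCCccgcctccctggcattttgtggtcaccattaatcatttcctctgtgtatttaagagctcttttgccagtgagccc
CCL28: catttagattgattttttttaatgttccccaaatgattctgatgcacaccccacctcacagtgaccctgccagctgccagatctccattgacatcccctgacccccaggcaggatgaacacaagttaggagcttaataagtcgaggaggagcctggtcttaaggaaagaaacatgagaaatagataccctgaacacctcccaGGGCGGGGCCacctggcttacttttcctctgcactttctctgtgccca
The match begins 85 bases before the start in CSF2, where it reads on the strand opposite to the sequence shown. In CCL28 it begins 48 bases before the start and reads on the strand shown. These letters are common, being found in 58.7% of the 35116 RefSeq windows of 300 bases. A second CCL28 window held no match. Neither TGANTCA, the AP-1 letters found in 7.71% of windows, nor TATAAA, found in 11.5%, occurred in the windows of CSF2 or CCL28.

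The AU-rich pentamer, ATTTA in the DNA letters, was counted in the 3′ untranslated region of the MANE Select transcript of GENCODE release 44, with overlapping copies counted separately and the plus sense of the transcript searched. CSF2 held 8 copies in 318 bases, or 25.2 per kb, and CSF3 held 7 in 854 bases, or 8.20 per kb. The density was 2.66 per kb in CCL2 with 1 copy, 2.62 in CCL28 with 7 copies and 1.86 in CSF1 with 4 copies, and neither IL34 nor CCL5 had a copy. Over 18780 transcripts the median was 1.55 per kb, and 68.3% held at least 1 copy. The 30 bases richest in the pentamer, in capitals, show how CSF2 differs from the other genes. They lie at chr5:132076072-132076101, plus strand, chr17:40016975-40017004, plus strand, chr1:109930911-109930940, plus strand, and chr17:34256938-34256967, plus strand, in the order given.
CSF2: ttttaaaatATTTATTTATTTATTTATTTA
CSF3: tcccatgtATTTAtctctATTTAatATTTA
CSF1: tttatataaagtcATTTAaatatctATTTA
CCL2: tatgccttaagtaatgttaattcttATTTA
The CSF2 window holds 5 pentamers that overlap end to end, whereas the windows of CSF3, CSF1 and CCL2 hold 3, 2 and 1.

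Expected counts, which estimate the reads of each gene, summed to 27269986 to 33851130 per library, and 3 counts stood at 0.0886 to 0.110 CPM (counts scaled to the library total). Library totals carry TMM factors of 0.913 to 1.06, which correct for a few genes taking many reads. No replicates were alike within sampling noise, and TNPR and TNBU had the widest spread between replicates (chi-square per gene of 15.2 and 18.1, against 3.17 to 6.61 in the other groups). Differences were tested with limma-voom over 24342 genes, with a call where the fold change exceeded 1.5 at an adjusted p below 0.05. Of the 7 genes, 6 passed the filter on low counts, and CCL5 did not. Markers of the labelled cell type moved both ways, and those named here besides KRT8 and GGT1 were chosen after their values were seen. All 7 epithelial genes were tested, and 4 were up against TN in each SCFA group except TNPR, where 3 were, and 2 were down. Epithelial keratin KRT8 stood at 783 CPM in Ctrl, 725 in TN and 1086 to 1425 with SCFAs. KRT18 rose from 355 CPM in TN to 565 to 723, KRT19 from 4.53 to 82.4 to 119 and CDH1 from 0.109 to 9.94 to 14.1. EPCAM fell from 57.1 CPM in TN to 15.3 to 22.1 and the renal factor PAX8 from 403 to 131 to 158. Of the 11 proximal tubule genes 8 were tested, and 5 were up and 1 down against TN in each SCFA group. Over all tested genes 23.1% to 25% were up and 14.8% to 16.9% down against TN. LRP2 and HNF4A had 0 counts in Ctrl and TN, and ANPEP had 3 in Ctrl and 0 in TN. These genes passed the filter only through the SCFA groups, so against TN they could only be called up. GGT1 was highest, at 221 CPM in Ctrl, 194 in TN and 63.9 to 72.4 with SCFAs. AQP1 rose from 0.439 CPM in TN to 6.31 to 14.8, and LRP2, ANPEP, CUBN and HNF4A were also up, at no more than 3.46 CPM. The transporter SLC22A6 had no count, and SLC34A1 had group means under 0.1 CPM. The leukocyte list summed to 30.4 to 55.0 CPM over the libraries, mostly from CD68, and the pan-leukocyte marker PTPRC had at most 6 counts in a group. In Ctrl and TN 8 and 9 of its 16 genes had no count, and in the SCFA groups 1 to 2. The 6 fibroblast genes summed to 52.6 to 59.6 CPM in Ctrl and TN libraries and 204 to 255 with SCFAs, led by COL1A1, and the 5 endothelial genes to at most 3.87. Their part in the results was not tested.

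**Figure D1:**
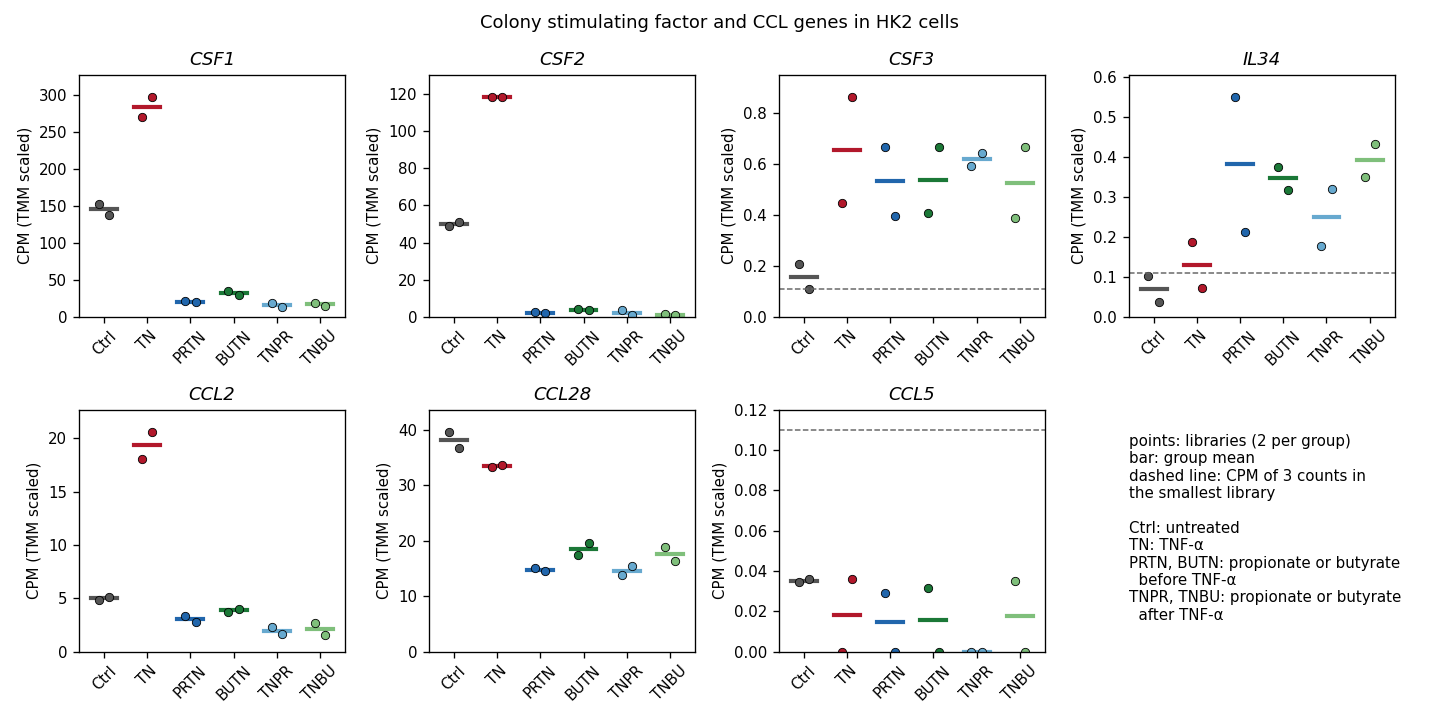
TMM-scaled CPM of the 7 genes in each of the 12 libraries, with points for libraries, bars for group means and a dashed line at the CPM of 3 counts in the smallest library (each panel has its own axis from 0). CSF1, CSF2 and CCL2 were highest in TN and low in the 4 SCFA groups, CCL28 was high in Ctrl and TN, and CCL5 stayed under 3 counts in every library.

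TNF-α raised CSF1, CSF2 and CCL2 within 3 h, and CCL28 had no call. The question of this comparison is what the inflammatory stimulus itself did to these genes. Of all tested genes 0.764% were up and 0.534% down in TN vs Ctrl, and 3 of the 6 tested members were called up and 0 down. At an unadjusted p under 0.05, 4 members were up and 1 down, while edgeR called 3 up and 0 down and DESeq2 2 up and 0 down. Shares of all tested genes at that unadjusted p are not given for comparisons of 2 groups. Such counts of members, here and below, are therefore no result about the members. For the 6 genes the median log2 change was 1.11, against -0.01 over all tested genes.

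CSF2 (ENSG00000164400.5, chromosome 5, 132073789 to 132076170, plus strand, GRCh38) encodes GM-CSF. Its Ctrl libraries held 48.8 and 51.1 CPM and its TN libraries 119 and 118. PRTN libraries held 2.52 and 1.89 CPM, BUTN libraries 4.04 and 3.41, TNPR libraries 3.79 and 0.672, and TNBU libraries 1.33 and 0.896. Every TN library was above every Ctrl library, and every SCFA library was below both. The rise with TNF-α was 2.37-fold (95% confidence interval 0.88 to 1.61 on the log2 scale, adjusted p = 0.00128), a call that DESeq2 did not make (adjusted p = 0.269).

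CSF1 (ENSG00000184371.13, chromosome 1, 109910242 to 109930992, plus strand), the macrophage growth factor, stood at 152.5 and 138 CPM in the Ctrl libraries and at 271 and 298 with TNF-α. PRTN libraries held 21.1 and 19.8 CPM, BUTN libraries 34.2 and 29.4, TNPR libraries 18.2 and 13.5, and TNBU libraries 19.0 and 14.8. As for CSF2, both TN libraries were above Ctrl and all 8 SCFA libraries below it. Its rise with TNF-α was 1.95-fold (log2 0.97, standard error 0.10, adjusted p = 0.000325 from limma-voom).

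CCL2 (ENSG00000108691.9, chromosome 17, 34255274 to 34257208, plus strand), which encodes the monocyte chemoattractant MCP-1, was at 4.81 and 5.16 CPM in Ctrl and 18.1 and 20.6 in TN. PRTN libraries held 3.30 and 2.80 CPM, BUTN libraries 3.75 and 3.99, TNPR libraries 2.28 and 1.599, and TNBU libraries 2.70 and 1.56. Of the called members it rose most with TNF-α, by 3.87-fold (log2 1.95, standard error 0.16, adjusted p = 3.85e-05 from limma-voom), and again no SCFA library reached a Ctrl library.

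CCL28 (ENSG00000151882.11, chromosome 5, 43376645 to 43412391, minus strand) behaved differently under TNF-α. Its Ctrl libraries held 39.7 and 36.8 CPM and its TN libraries 33.3 and 33.7. PRTN libraries held 15.1 and 14.5 CPM, BUTN libraries 17.5 and 19.65, TNPR libraries 13.7 and 15.4, and TNBU libraries 18.8 and 16.3. The TN libraries were slightly below the Ctrl libraries without a call (log2 -0.19, standard error 0.09, adjusted p = 0.283 from limma-voom). All 8 SCFA libraries lay below both groups.

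With SCFAs added before TNF-α, the same 4 genes, CSF1, CSF2, CCL2 and CCL28, were lower than in TN, and 0 members were higher. This comparison asks whether, after the cytokine, cells already exposed to an SCFA reach the levels of TN cells. Without cells given SCFA alone, a changed response to TNF-α and a changed level before it cannot be told apart. In PRTN vs TN 23.9% of all tested genes were up and 16.7% down, and 0 and 4 of the 6 tested members. In BUTN vs TN the shares over all genes were 23.1% and 14.8%, and the members again gave 0 and 4. At an unadjusted p under 0.05, 1 member was up in PRTN and 0 in BUTN, while edgeR and DESeq2 called 0 up in either. The 6 members had a median log2 change of -1.92 in PRTN and -1.58 in BUTN, where the medians over all genes were 0.09 and 0.08. In bulk RNA, fewer expressing cells and less RNA per cell cannot be told apart.

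The fall was steepest for CSF2, with a log2 fold change of -5.75 in PRTN (standard error 0.36, adjusted p = 4.60e-08) and -4.99 in BUTN (standard error 0.29, adjusted p = 3.97e-08 from limma-voom), or 1.86% and 3.14% of its TN level. For CSF1 the log2 fold changes were -3.80 in PRTN (standard error 0.12, adjusted p = 4.03e-10) and -3.16 in BUTN (standard error 0.12, adjusted p = 1.15e-09 from limma-voom). CCL2 was at -2.66 and -2.32 on this scale, or 15.7% and 19.99% of TN. The smallest change among these 4 genes was that of CCL28, with log2 fold changes of -1.18 in PRTN (standard error 0.09, adjusted p = 4.00e-07) and -0.85 in BUTN (standard error 0.09, adjusted p = 5.91e-06 from limma-voom).

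With SCFAs added after TNF-α, CSF1, CSF2, CCL2 and CCL28 were again the 4 members lower than in TN. The comparison addresses treatment of cells that have already been stimulated. TNPR vs TN called 24.9% of all tested genes up and 16.9% down, and TNBU vs TN 25% and 16.5%, and in each of these the members gave 0 up and 4 down. At an unadjusted p under 0.05, 0 members were up in TNPR and 1 in TNBU, while edgeR and DESeq2 called 0 up in either. TN cells were collected after 3 h, so the time since TNF-α and the SCFA cannot be told apart here.

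The log2 fold change of CSF2 was -6.15 in TNPR (standard error 0.41, adjusted p = 7.58e-08) and -6.74 in TNBU (standard error 0.49, adjusted p = 1.98e-07 from limma-voom). The TNPR replicates of CSF2 differed 5.64-fold, with 128 counts in replicate 1 and 21 in replicate 2. Its value against TN was -7.47 without replicate 1 and -5.02 without replicate 2. CSF1 was at -4.17 in TNPR and -4.08 in TNBU on the same scale, or 5.59% and 5.94% of TN. For CCL2 the log2 fold changes were -3.32 and -3.24 (standard error 0.21 in each, adjusted p = 5.53e-08 and 8.74e-08 from limma-voom), and CCL28 was left at 43.5% and 52.5% of TN. The 6 members had a median log2 change of -2.26 in TNPR and -2.09 in TNBU, against 0.12 and 0.09 over all tested genes. The comparisons with TN share the same TN libraries, so they are not independent of each other.

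**Figure D2:**
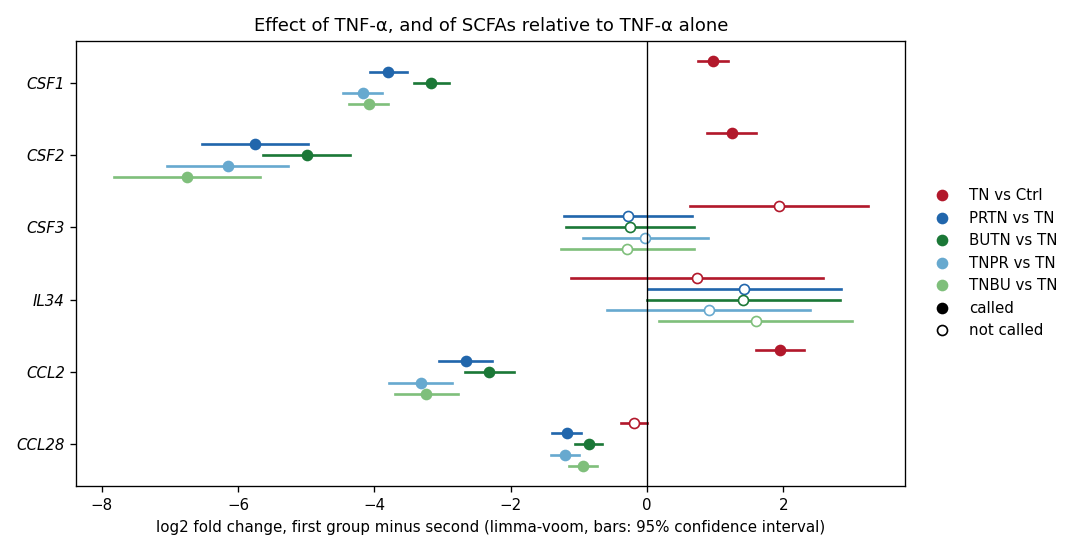
Log2 fold changes of the 6 tested genes with 95% confidence intervals, for TNF-α against control and for each SCFA group against TN (filled points are called, open points are not). CSF2 lies furthest left, at -4.99 to -6.74 in the SCFA groups, and CSF3 and IL34 have no call.

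Several of these genes ended below the level of untreated cells, and CSF1, CSF2 and CCL28 did so in all 4 SCFA groups. The question here is whether the SCFAs returned the genes to their unstimulated level. Against Ctrl, 22.6% of all tested genes were up and 16.9% down with PRTN, 22% and 14.9% with BUTN, 23.6% and 16.8% with TNPR, and 23.6% and 16.5% with TNBU. Down were 4 of the 6 tested members in each SCFA group except BUTN, where 3 were. The level of CSF2 was 4.41%, 7.45%, 4.47% and 2.23% of Ctrl for PRTN, BUTN, TNPR and TNBU. In TNPR the log2 value of CSF2 against Ctrl was -4.91, -6.21 without TNPR replicate 1 and -3.76 without TNPR replicate 2. CSF1 was at 14.1%, 21.9%, 10.9% and 11.6% of Ctrl in the same order, and CCL28 at 38.1% to 48.5%.

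CCL2 stood closer to its control level. It was lower than Ctrl in TNPR (log2 -1.37, standard error 0.24, adjusted p = 0.000323), in TNBU (log2 -1.28, standard error 0.24, adjusted p = 0.000591) and in PRTN (log2 -0.71, standard error 0.21, adjusted p = 0.0119 from limma-voom). The PRTN call was lost without Ctrl replicate 2 (adjusted p = 0.0603) or PRTN replicate 2 (adjusted p = 0.0710). In BUTN the difference was not called (log2 -0.36, 95% confidence interval -0.79 to 0.07, adjusted p = 0.146).

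CSF3 and IL34 were expressed near the detection limit. CSF3 (ENSG00000108342.12, chromosome 17, 40015361 to 40017813, plus strand), the granulocyte growth factor, had 6 and 3 counts in the Ctrl libraries and 12 and 24 with TNF-α. PRTN libraries held 23 and 13 counts, BUTN libraries 13 and 23, TNPR libraries 20 and 20, and TNBU libraries 11 and 20. Both Ctrl libraries were below all 10 others, whereas TN and the SCFA groups overlapped. Summed over libraries, the ratio of TN to Ctrl was 4.17 (95% counting interval 1.97 to 9.84), a rise that was not called (adjusted p = 0.108 from limma-voom). Against TN no SCFA group differed by a call, with log2 fold changes from -0.29 to -0.03.

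Relative to Ctrl, CSF3 was called up in all 4 SCFA groups (adjusted p = 0.0318, 0.0307, 0.0148 and 0.0348 from limma-voom for PRTN, BUTN, TNPR and TNBU). The counting ratio to Ctrl was 3.38 (1.599 to 7.99) in PRTN and 3.90 (1.86 to 9.13) in TNPR. DESeq2 made the call in TNPR alone, and without Ctrl replicate 2 the adjusted p was 0.112 to 0.194. Calls in PRTN, BUTN and TNBU were also lost without Ctrl replicate 1 (adjusted p = 0.0771 to 0.0804), PRTN replicate 1 (0.153), BUTN replicate 2 (0.144) or TNBU replicate 2 (0.167).

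IL34 (ENSG00000157368.10, chromosome 16, 70579895 to 70660682, plus strand), the other CSF1R ligand, was scarce in Ctrl and TN. Its Ctrl libraries held 3 and 1 counts and its TN libraries 5 and 2. PRTN libraries held 19 and 7 counts, BUTN libraries 12 and 11, TNPR libraries 6 and 10, and TNBU libraries 10 and 13. In CPM all 8 SCFA libraries were above both Ctrl libraries, and those of PRTN, BUTN and TNBU were above both TN libraries, while TNPR overlapped with TN. Against TN the log2 fold changes were 0.90 to 1.59 without a call (adjusted p = 0.0804, 0.0844, 0.283 and 0.0530 from limma-voom, groups in the same order). Without PRTN replicate 2 the PRTN value was called (adjusted p = 0.0156), and without either PRTN library the TNBU value was (adjusted p = 0.0369 and 0.0370).

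Against Ctrl, IL34 was called up in PRTN (adjusted p = 0.0242), BUTN (0.0256) and TNBU (0.0166), but not in TNPR (0.0861 from limma-voom). The counting ratio to Ctrl was 5.50 (1.91 to 21.7) in PRTN and 3.51 (1.13 to 14.4) in TNPR. These calls were lost with DESeq2 (adjusted p = 0.0587 to 0.0842) and without either Ctrl library (0.0544 to 0.172). The same held without PRTN replicate 1 (0.143), BUTN replicate 1 (0.0735) or TNBU replicate 2 (0.0537). Counting CSF3 and IL34 together, 2 of the 6 tested members were up against Ctrl in PRTN, BUTN and TNBU and 1 in TNPR, beside 22.6%, 22%, 23.6% and 23.6% of all tested genes in PRTN, BUTN, TNBU and TNPR, which is no result about the members.

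CCL5 (ENSG00000271503.5, chromosome 17, 35871491 to 35880793, minus strand), a T cell chemokine, had 1 or 0 counts in every library and was not tested. The gene that overlaps it on the opposite strand, AC015849.2, had no count. Its level was thus under 0.110 CPM in each group, and no change was detectable at this depth. The counting intervals and this limit cover counting error only.

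Compared per kilobase of exon, the order of the genes changed with treatment. For CCL2 the exon length used was 1935 bases, the whole span of the gene, so any intron was counted as exon. A shorter length would raise its values in every group and could change its place. The order and the leading genes given here hold for the exon lengths used, and other lengths were not tried. CSF2 led in Ctrl and TN, at 63.4 ± 2.09 and 150.2 ± 0.305 CPM per kb (SD, n = 2), followed by CSF1 at 27.8 ± 1.92 and 54.2 ± 3.64. CCL28 came before CCL2 in Ctrl, at 8.45 ± 0.450 and 2.58 ± 0.130 CPM per kb, and after it in TN, at 7.41 ± 0.0600 and 10.0 ± 0.930. In PRTN and BUTN CSF1 was highest, at 3.90 ± 0.172 and 6.07 ± 0.637 CPM per kb. CCL28 led in TNPR and TNBU, at 3.22 ± 0.266 and 3.89 ± 0.394 CPM per kb, within the spread of CSF1 at 3.03 ± 0.633 and 3.22 ± 0.560. In TNPR it was also within that of CSF2, at 2.83 ± 2.80 CPM per kb, which led in TNPR replicate 1 with 4.81 and was at 0.852 in replicate 2. CSF3, IL34 and CCL5 were last in this order in every group, at under 0.3 CPM per kb.

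**Figure D3:**
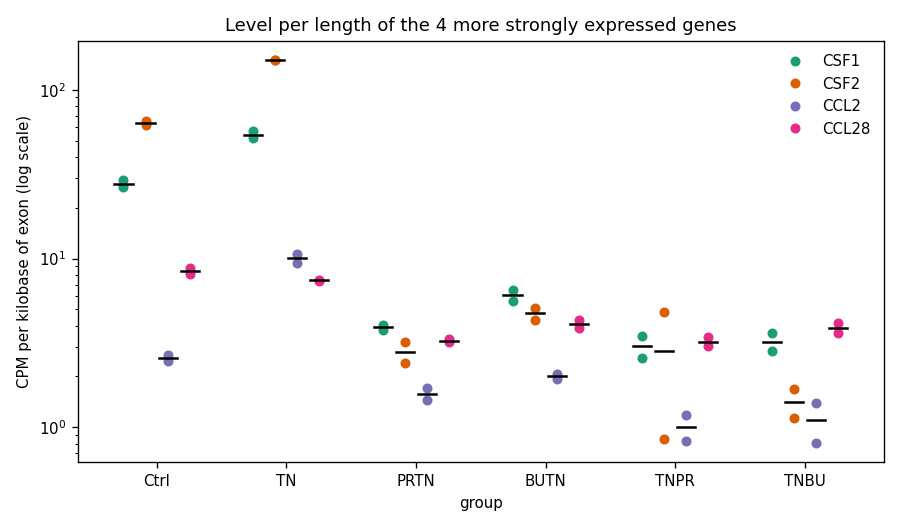
CPM per kilobase of exon of CSF1, CSF2, CCL2 and CCL28 by group on a log axis, with points for the 2 libraries and black bars for their mean. With the exon lengths used, group means spread from 2.58 to 150.2 CPM per kb in Ctrl and TN and lie between 1.00 and 6.07 in the SCFA groups. The lowest value of each range is that of CCL2, whose length was its whole gene span.

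Between propionate and butyrate no member was called, and between earlier and later addition CSF1 alone was, for butyrate. The doses were 15 mM propionate and 3 mM butyrate, so the comparison is of these treatments and not of the compounds at equal dose. Between PRTN and BUTN 0.168% of all tested genes were called in either direction, between TNPR and TNBU 0.00822%, and 0 of 6 members in each. At an unadjusted p under 0.05, 2 members were lower in PRTN than in BUTN and 1 lower in TNPR than in TNBU. In the first of these comparisons edgeR called 0 and DESeq2 1, and both called 0 in the second.

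CSF1 came nearest to a difference. It was lower in PRTN than in BUTN with no overlap of the libraries (log2 -0.63, 95% confidence interval -0.93 to -0.33, adjusted p = 0.0648 from limma-voom), and DESeq2 called it (adjusted p = 0.000624). The limma-voom call also appeared without either TNPR library (adjusted p = 0.0341 and 0.0340) or either TNBU library (adjusted p = 0.0300 and 0.0300). Between PRTN and BUTN the log2 interval was -1.70 to 0.19 for CSF2, -0.81 to 0.12 for CCL2 and -0.54 to -0.11 for CCL28. Between TNPR and TNBU it was -0.43 to 0.26 for CSF1, -0.76 to 1.94 for CSF2, -0.69 to 0.52 for CCL2 and -0.49 to -0.05 for CCL28.

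Between the times of addition, 0.16% of all tested genes were called for propionate (TNPR vs PRTN) and 0.267% for butyrate (TNBU vs BUTN). Of the members, CSF1 was lower in TNBU than in BUTN (log2 -0.92, standard error 0.15, adjusted p = 0.0145), and this was the sole call. It was lost without BUTN replicate 1 (adjusted p = 0.175), BUTN replicate 2 (0.0637) or TNBU replicate 2 (0.0899). CSF2 gave -1.75 for butyrate (95% confidence interval -2.95 to -0.55, adjusted p = 0.179), which was called without either TNPR library (0.00801 and 0.00797), and CCL2 gave -0.92 (adjusted p = 0.114), called without TNBU replicate 1 (0.0283). In TNPR vs PRTN 0 members were called by limma-voom, edgeR or DESeq2, and 2 were lower at an unadjusted p under 0.05. The difference between both SCFAs in their time effect was called for 0% of all genes and for 0 members with limma-voom, edgeR and DESeq2, with 1 member at an unadjusted p under 0.05. Over all genes 935 passed that unadjusted p, edgeR called 1 and DESeq2 5.

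Of the other CC chemokines, CCL20 was the strongly expressed gene, and it was higher than TN in every SCFA group. Of 23 genes in the list, 7 passed the filter, and 1 was up in TN vs Ctrl, beside 0.764% of all tested genes. Against TN, 5 were up with each SCFA treatment except TNBU, where 4 were, and 0 were down. Over all tested genes 23.1% to 25% were up against TN and 14.8% to 16.9% down. CCL20, which attracts CCR6-bearing lymphocytes and dendritic cells, was at 56.6 ± 1.37 CPM in untreated cells and 214 ± 2.77 CPM in TN (SD, n = 2). It stood higher still with SCFAs, where PRTN reached 913 ± 32.2 CPM, BUTN 992 ± 69.0, TNPR 693 ± 138 and TNBU 717 ± 45.5 (log2 1.68 to 2.21 against TN, highest adjusted p = 6.92e-08 from limma-voom). Its log2 rise with TNF-α was 1.92, beside 1.95 for CCL2.

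The remaining called CC chemokines were under 1 CPM in every group. CCL17, CCL22, CCL24 and CCL26 had 0 counts in Ctrl and 0 or 1 in TN, so they passed the filter only through the SCFA groups and against TN could only be called up. CCL22, a ligand of CCR4, had 1 count in the TN libraries together and 23, 44, 34 and 51 in PRTN, BUTN, TNPR and TNBU. CCL17, another CCR4 ligand, went from 0 counts in TN to 11, 14, 18 and 10. CCL26, an eotaxin, went from 1 to 17, 36, 27 and 22 counts. CCL24, a further eotaxin, had 59 and 43 counts where the SCFA came first (PRTN and BUTN), 0 and 3 where it came second, and 0 without it. It was called lower in TNPR than in PRTN (adjusted p = 0.0101 from limma-voom). CCL27 was called up in TNPR alone, with 11.4 counts against 1.64 in TN. Against TN these 7 genes had a median log2 change of 3.06, 3.58, 2.32 and 1.86, and 2.09, 2.21, 1.68 and 1.64 with every group of 3 or fewer counts set to 3 counts. In TN vs Ctrl it was 0.85, and 0.06 on the latter reckoning. For comparison, the median over all tested genes was 0.08 to 0.12.

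Receptors of these ligands were weakly expressed, with 9 of 16 passing the filter. Against TN, 5, 5, 4 and 5 of them were up and 1, 0, 1 and 1 down in PRTN, BUTN, TNPR and TNBU, and in TN vs Ctrl 0 were up and 1, the scavenging receptor ACKR2, was down. CSF1R, the receptor of CSF1 and IL34, was at 0.146 CPM in TN and at 1.11, 0.958, 0.745 and 0.607 CPM in PRTN, BUTN, TNPR and TNBU (adjusted p = 0.00158 to 0.0287 from limma-voom). CSF2RB, the shared beta chain of the CSF2 receptor, went from 0.110 CPM to 0.588 to 0.831, while CSF2RA, its alpha chain, was called in TNBU alone, at 0.304 CPM. CCR4 had 2 counts in the TN libraries together and 39.0 to 63.3 in the SCFA groups, and ACKR2 had 0 and 21.0 to 27.3. SDC1, a proteoglycan reported to bind chemokines and growth factors, was by far the highest of this list and fell from 154 CPM in TN to 89.1 to 97.8 in PRTN, TNPR and TNBU. Of the leukocyte markers, a list that also holds CSF1R, 8, 6, 6 and 6 of 11 tested genes were up against TN in the same order. The receptor medians against TN were 2.72, 2.42, 2.03 and 1.86, and 1.44, 1.59, 2.03 and 1.80 with groups of 3 or fewer counts set to 3.

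Other growth factors of blood cells did not follow a common direction. Of 9 listed, 6 were tested, and against TN 2, 3, 3 and 3 were up and 2, 2, 2 and 2 down in PRTN, BUTN, TNPR and TNBU. The shares over all tested genes were 23.1% to 25% up and 14.8% to 16.9% down. KITLG, the stem cell factor that binds KIT, rose from 23.0 ± 1.81 CPM in TN to 178 ± 0.188, 198 ± 4.17, 160.3 ± 9.48 and 171 ± 22.8 CPM in PRTN, BUTN, TNPR and TNBU (SD, n = 2 in each). IL11, a cytokine of the IL6 family and the gene up in TN vs Ctrl, fell from 89.0 ± 1.91 CPM in TN to between 10.8 and 17.1 in the SCFA groups. IL7, a lymphocyte growth factor, fell from 6.14 CPM to between 2.498 and 3.96. THPO and EPO had no more than 29 counts in any group. In Ctrl and TN THPO had 0 and 1 counts and EPO 2 and 0. Both passed the filter only through the SCFA groups, so against TN they could only be called up. The medians of the 6 genes were 0.61, 1.14, 1.39 and 1.29. With groups of 3 or fewer counts set to 3 they were -0.36, 0.36, 0.66 and 0.40, so the sign turned in PRTN.

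Known NF-κB response genes were mostly up with TNF-α, as CSF1, CSF2 and CCL2 were, and had calls in both directions against TN. Of 16 listed and tested, 14 were up in TN vs Ctrl and 0 down, beside 0.764% and 0.534% of all tested genes. Their median log2 fold change was 1.14 (1.06 with groups of 3 or fewer counts set to 3). Against TN, 10, 8, 12 and 11 were down and 2, 3, 1 and 1 up in PRTN, BUTN, TNPR and TNBU, with medians of -1.04, -0.63, -1.80 and -1.69. Of all tested genes 14.8% to 16.9% were down against TN and 23.1% to 25% up. SOD2, the mitochondrial superoxide dismutase, rose from 1320 to 3287 CPM with TNF-α and was at 611 to 802 CPM in the SCFA groups. TNFAIP3, which encodes the NF-κB inhibitor A20, rose from 110.3 to 489 CPM and stood at 220.5, 287, 156 and 179 CPM in PRTN, BUTN, TNPR and TNBU. BIRC3, an inhibitor of apoptosis, was higher still with an SCFA in PRTN (1130 against 487 CPM), BUTN (1298) and TNBU (794), and ICAM1, an adhesion molecule, was up in BUTN (809.8 against 458 CPM) and down in TNPR (301). CXCL8, the neutrophil chemokine IL-8, fell in PRTN, TNPR and TNBU (log2 -0.68, -1.14 and -1.07), and NFKB2 had no call against TN.

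**Figure D4:**
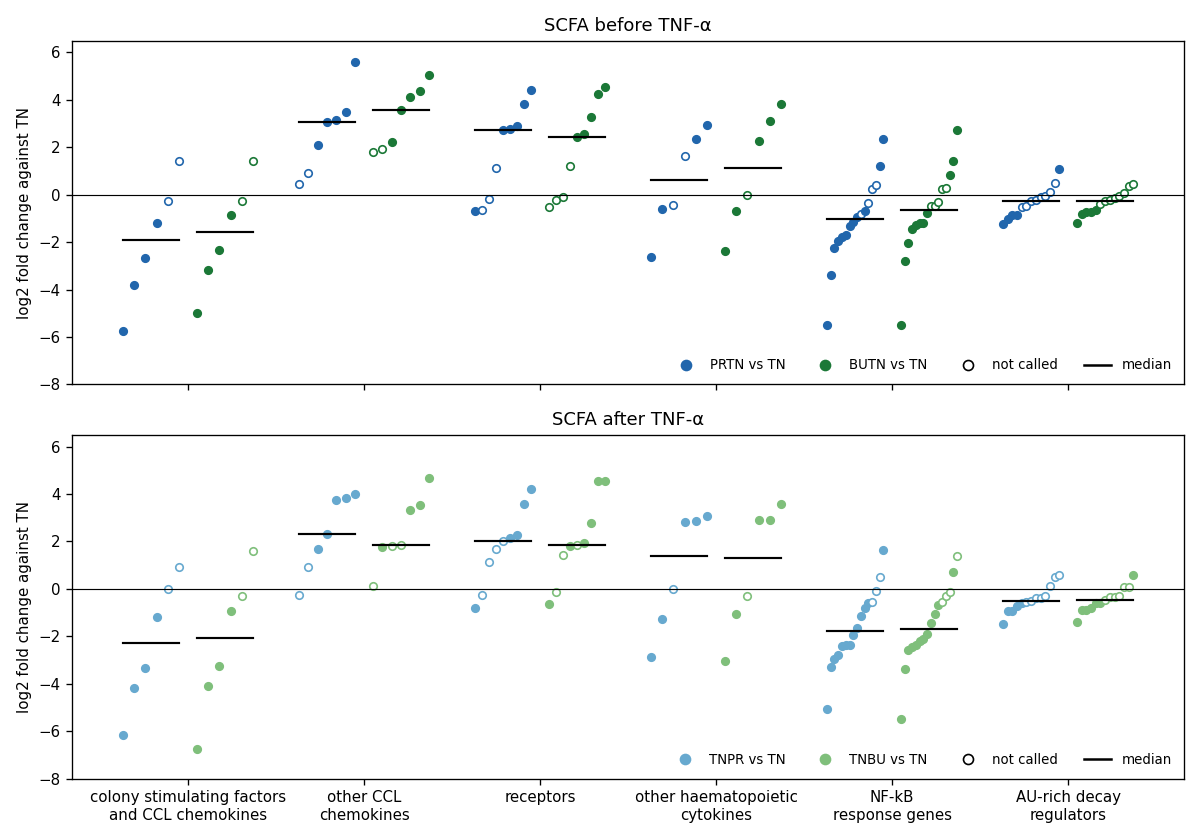
Log2 fold changes against TN of every tested gene in the member list and 5 related lists, for SCFA before TNF-α (upper panel) and after it (lower panel), with filled points for called genes and lines at the median. The members and the NF-κB response genes lie mostly below 0 and the other CC chemokines mostly above it, where many values rest on few counts in TN.

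Regulators of AU-rich decay that were called against TN were mostly lower. All 13 listed genes were tested and 0 were called in TN vs Ctrl, with a median of 0.05. Against TN, 4, 5, 5 and 6 were down and 1, 0, 0 and 1 up in PRTN, BUTN, TNPR and TNBU. Of all tested genes 16.7%, 14.8%, 16.9% and 16.5% were down and 23.1% to 25% up. The medians were -0.27, -0.27, -0.50 and -0.46. HNRNPD, which encodes the binding protein AUF1, fell from 351 ± 20.8 CPM in TN to 183 to 215 CPM, and ZC3H12A, the nuclease regnase-1, from 188 to between 69.1 and 82.6. TIA1 and TIAL1, which repress translation of such messages, fell by 0.72 to 1.00 on the log2 scale. ZFP36L1, a decay factor, was called down in TNBU alone (log2 -0.60) and PARN, a deadenylase, up there (log2 0.59). ZFP36 (tristetraprolin), named after its value was seen, was up in PRTN alone (log2 1.08, adjusted p = 0.0170 from limma-voom).

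Genes next to the members on the chromosome had calls in both directions. The nearest tested gene above CSF1, AHCYL1, was 53.8 kb away and rose from 186 CPM in TN to 295, 333 and 301 in PRTN, TNPR and TNBU. Next to CSF2, ACSL6 rose from 0.0179 CPM to 0.567 to 1.13, while P4HA2, a collagen prolyl hydroxylase 114 kb away, fell from 288 CPM to 117 to 144. SF3B3, a splicing factor gene 2.23 kb below IL34, fell from 473 CPM in TN to 223 to 259, and MTSS1L, 0.522 kb above it, had no call. TMEM267, 31.9 kb from CCL28, was lower in PRTN and TNPR (20.7 CPM in TN, 11.9 and 11.6), and the neighbours of CCL2 lay 215 and 671 kb away with no call. Besides these, MED24 beside CSF3 was lower in BUTN and TNBU, the RNA genes next to CSF1 and CSF3 were higher at under 1 CPM, and neither neighbour of CCL5 was called.

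Across the 12 libraries, the log2 levels of CSF1 and CSF2 had a Pearson r of 0.990. CSF1 with CCL28 gave 0.935, CSF1 with CCL2 0.915, CCL2 with CCL28 0.745 and CSF1 with IL34 -0.74. These values describe libraries that share groups and differ in depth. Among 11279 genes of at least 5 CPM in a group, the patterns most like CSF1 were those of TMEM51, CLIC1 and RIPK2 (r = 0.996 to 0.997). For CSF2 they were TNFSF10, IL11 and BTN2A1 (0.993 to 0.997), for CCL2 WTAP, ETS1 and FRMD6 (0.987 to 0.993), and for CCL28 CAP2, SRSF8 and ZNF33B (0.991 to 0.993). TNFSF10, which encodes the death ligand TRAIL, stood at 402 CPM in Ctrl, 655 in TN and 26.7 to 50.4 in the SCFA groups. CSF3 (RPS20, RPS21 and PFDN4, 0.860 to 0.893) and IL34 (CDC37L1, ALDH1A3 and UBE2D1, 0.892 to 0.9002) had weaker matches.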

How the data were processed

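The authors made stranded mRNA libraries, aligned reads to GRCh38 with STAR 2.6.1a and counted them per gene with RSEM (version and strand setting not given in the sources used here) on GENCODE release 26. What the authors deposited are unscaled, unfiltered expected counts, of which 19.3% are not whole. None of the 84 values of the 7 genes is among these.

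Genes with a geometric mean count under 1 over the 12 libraries (1 added, then subtracted) were removed, leaving 24342. TMM factors (edgeR 4.0.16) and limma-voom (limma 3.58.1, R 4.3.3) with all 12 libraries in a single model gave log2 fold changes, adjusted over all tested genes by Benjamini-Hochberg. Alternatives used edgeR and DESeq2 1.42.0 on rounded counts, other filters, scalings and fits, and left out each library in turn. The test was tried on simulated counts. Positions come from GENCODE release 44.

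The members, the gene lists and the tests were chosen with earlier results of these data known. Named genes are the 7 members, up to 6 called genes of each list by mean CPM, CCL20, the highest marker genes, the nearest tested neighbours, and the 3 genes most correlated with each member over the log2 of CPM plus 0.5. The listed symbols included 1 that was not found.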

Additional observations from a re-analysis of the deposited data

How the results depend on the processing

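The calls of CSF1, CSF2, CCL2 and CCL28 against TN kept direction and threshold under 22 alternatives, except that CCL28 in BUTN and TNBU is under 2-fold. The log2 fold changes of CSF3 and IL34 between SCFA groups, and of every member in the difference of time effects, were not recomputed and are not reported. Over the other log2 fold changes of the members, 1466 values kept direction and side of the threshold, 39 lost a call, 17 gained one and 18 changed sign. CSF1 in TN vs Ctrl was also under 2-fold. Requiring a 2-fold change gave 0 members down in TNBU vs BUTN, and fitting only the groups compared gave 0 there too. That fit gave 2 members down in PRTN vs BUTN and 1 up against Ctrl in PRTN and in TNBU. DESeq2 gave 0 up against Ctrl in PRTN, BUTN and TNBU, and 1 down in PRTN vs BUTN, as did the literal geometric mean filter (19096 genes). In TNBU vs TN, 1 member (IL34) was up with library size alone, the literal geometric mean or the filter of edgeR (19420 genes). The sign of CSF3 in TNPR vs TN turned with library size alone (0.14), and that of CSF2 in TNPR vs PRTN with edgeR (0.0446) and DESeq2 (0.0072). The cause was not tested. Library size alone moved the median of all genes against TN by 0.15 to 0.20 on the log2 scale.

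With each library left out, members up ranged from 0 to 1 in PRTN, TNBU (vs TN) and TNPR (vs Ctrl), and from 0 to 2 in PRTN, BUTN and TNBU vs Ctrl. Members down ranged from 0 to 1 in PRTN vs BUTN and from 0 to 2 in TNBU vs BUTN. Log2 values that changed sign were those of CSF3 against TN (-0.76 to 0.16 in PRTN, -0.73 to 0.18 in BUTN, -0.51 to 0.41 in TNPR, -0.76 to 0.16 in TNBU). In TNPR vs TNBU they were CSF1 (-0.32 to 0.10), CSF2 (-0.70 to 1.76) and CCL2 (-0.51 to 0.28). Between times they were CSF2 (-1.69 to 0.77) and CCL28 (-0.13 to 0.0507) for propionate, and CCL28 (-0.20 to 0.0177) for butyrate. A left-out group of 1 library was assumed to vary like the others.

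The replicate numbers share no stated culture or day, and 1 of 15 correlations between groups of same-numbered deviations was over 0.1 (range -0.08 to 0.24), so the numbers were not used as pairs. With the replicate block, 3 members were up in TN vs Ctrl and 4 down in each SCFA group vs TN, and no call of a member changed (CSF2 in TNPR vs TN, -5.95). Depth limits CSF3, IL34 and CCL5, which had at most 24 counts in a library.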
